A study of Homo sapiens with 45 samples.

Results

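The genes described here are the 44 protein-coding collagen genes of a count table of 64485 genes, taken by symbol as COL, a number, A and a number. All 44 were found in GENCODE 29, and all 45 libraries were used. Collagens are secreted proteins whose chains wind into a triple helix, and most of the protein framework around cells is built from them. Fibrillar collagens form the cables of connective tissue, type IV collagens form the sheet of the basement membrane on which breast epithelium rests, type VI forms beaded filaments next to that sheet, and other classes link fibrils, anchor membranes or span the cell surface. In breast tumours fibrillar collagen is mostly laid down by stromal fibroblasts, while epithelial cells contribute to the basement membrane.

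The study sequenced RNA of 15 human breast cancer cell lines, all untreated and all labelled as wild-type epithelial cells, with 3 libraries per line and so 45 in all. L-15 medium was used for MDA-MB-157, MDA-MB-453, MDA-MB-231, MDA-MB-468 and MDA-MB-436, EMEM for BT-20 and DMEM for Hs578T, while HCC1806, BT-549, HCC70, HCC1187, HCC38, HCC1937, HCC1143 and HCC1395 were grown in RPMI 1640. Sequencing runs 1 and 2 held MDA-MB-231, Hs578T, HCC1143 and HCC38, and runs 3, 4 and 5 held all remaining lines. Nothing in the labels says that libraries of 1 line are separate cultures, so a p-value here sets lines against a spread between samples that may be technical. Cells of a line grown alone hold no stroma, but in bulk RNA fewer cells of a kind and less RNA per cell cannot be told apart.

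Library totals lay between 2312138 and 14653677 counts, with a median of 6263573. Hs578T replicate 2 stood apart: it was the shallowest library, its lowest correlation with another library of its line was 0.926 (0.972 to 0.99 in the other lines), and 40272 genes had a count in it. At the same depth of 2312138 counts, 24737 and 26259 genes would be expected in Hs578T replicates 1 and 3. The collagen calls of Hs578T and some of its levels and fold changes are therefore also given without this library. All other Hs578T values include it. Replicate 2 of Hs578T was in sequencing run 1 and its replicates 1 and 3 were in run 2, so library and run cannot be told apart within this line. The label "epithelial" was checked against 9 markers. In BT-549, Hs578T and MDA-MB-436 9 were lower than the mean of the other lines, beside 10.7%, 9.56% and 10.9% of all genes. In HCC1395 and MDA-MB-157 8 were lower, beside 17.7% and 12.4%. Summed over the 9 markers, the level was 12.3 to 323 CPM (counts scaled to a common library size) in those 5 lines. It was 1350 CPM in MDA-MB-231 and 3230 to 9700 CPM in the remaining 9.

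Collagen RNA was concentrated in Hs578T and MDA-MB-157. The 44 genes took 1.25%, 0.674% and 0.845% of all counts in the 3 libraries of Hs578T and 0.853%, 0.891% and 0.848% in those of MDA-MB-157. No library of another line exceeded 0.183%, which HCC1806 reached, and the lowest line, HCC70, had 0.0105%, 0.00967% and 0.0103%. The 2 leading lines therefore did not overlap with any other line, and they did overlap with each other. Over all 45 libraries, COL4A2 held 11.4% of the collagen counts, COL6A3 10.4%, COL3A1 9.31% and COL1A2 8.23%.

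**Figure D1:**
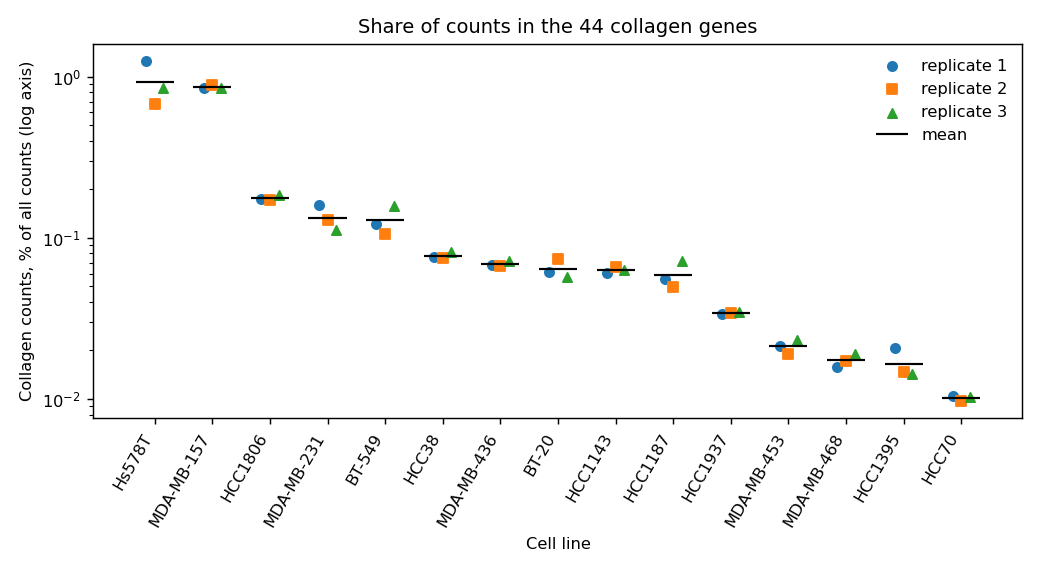
Share of all counts in the 44 collagen genes, in percent on a log axis, for each library of the 15 lines, ordered by mean (black bar); symbols mark replicates 1 to 3. Hs578T averaged 0.921% and MDA-MB-157 0.864%, against 0.0102% in HCC70.

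Levels are CPM scaled between libraries by TMM. Every line was set against the average of its 14 companions in 1 edgeR quasi-likelihood fit over all genes with Benjamini-Hochberg adjustment. That average is taken over log2 levels, so a few very high lines weigh less in it than in a mean of CPM. A gene can thus be called higher in a line whose CPM lies below the mean CPM of the others. A gene is called higher or lower at an adjusted p under 0.05 and a log2 fold change of at least 1 or of -1 or less. Low counts left 42 of the 44 collagens for testing, and all 42 differed among the lines, beside 98.2% of all genes tested, so a difference among lines as such sets no collagen apart. Of the 630 pairs of a collagen and a line, 164 (26%) were higher, beside 16.2% of pairs over all genes, and 191 (30.3%) were lower, beside 12.5%. Each of the 42 was higher in at least 1 line and lower in at least 1 line, but the only higher call of COL11A1, in Hs578T, was lost without replicate 2 of that line. The share of all genes with such calls in both directions is not given here, so this count sets no collagen apart.

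The calls were spread unevenly over the lines. In Hs578T 28 of 42 collagens were higher and 3 lower, beside 20.9% and 9.56% of all genes tested, and in MDA-MB-157 27 were higher and 3 lower, beside 20% and 12.4%. Each line is part of the comparison group of the others, so the counts of different lines are not independent. The highest level of 26 of the 42 genes was in 1 of these 2 lines, 13 in each. Without replicate 2 of Hs578T it was 23, with 9 in Hs578T and 14 in MDA-MB-157. The share of all genes with their highest level in these 2 lines is not given here, so neither count sets collagens apart. HCC70 and HCC1395 lay at the other end. In HCC70 2 were higher and 29 lower (17.7% and 22.9% of all genes), and in HCC1395 1 was higher and 29 lower (14.4% and 17.7%). The median log2 fold change over the 42 was 2.14 in MDA-MB-157, 1.52 in Hs578T, -1.56 in HCC1395 and -1.82 in HCC70, while the median over all genes lay between -0.11 and 0.09 in every line.

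Between these ends, more collagens were higher than lower in MDA-MB-231 and MDA-MB-436, with 16 higher and 5 lower in each (15% and 10.5% of all genes in MDA-MB-231, 16.4% and 10.9% in MDA-MB-436). HCC38 had 14 higher and 9 lower (13.8% and 10.2%), and BT-549 had 12 higher and 7 lower (13.3% and 10.7%). In HCC1143 11 were higher and 13 lower (18.4% and 11.3%), and in HCC1806 10 were higher and 14 lower (15.9% and 13.7%). The lower calls also outnumbered the higher ones in the remaining 5 lines. HCC1187 had 8 higher and 15 lower (16.4% and 12.5%), and BT-20 had 6 higher and 15 lower (14.2% and 11.3%). MDA-MB-453 had 5 higher and 15 lower (17.7% and 14.6%), MDA-MB-468 had 4 higher and 17 lower (14.7% and 9.19%), and HCC1937 had 4 higher and 12 lower (14.5% and 10.8%).

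**Figure D2:**
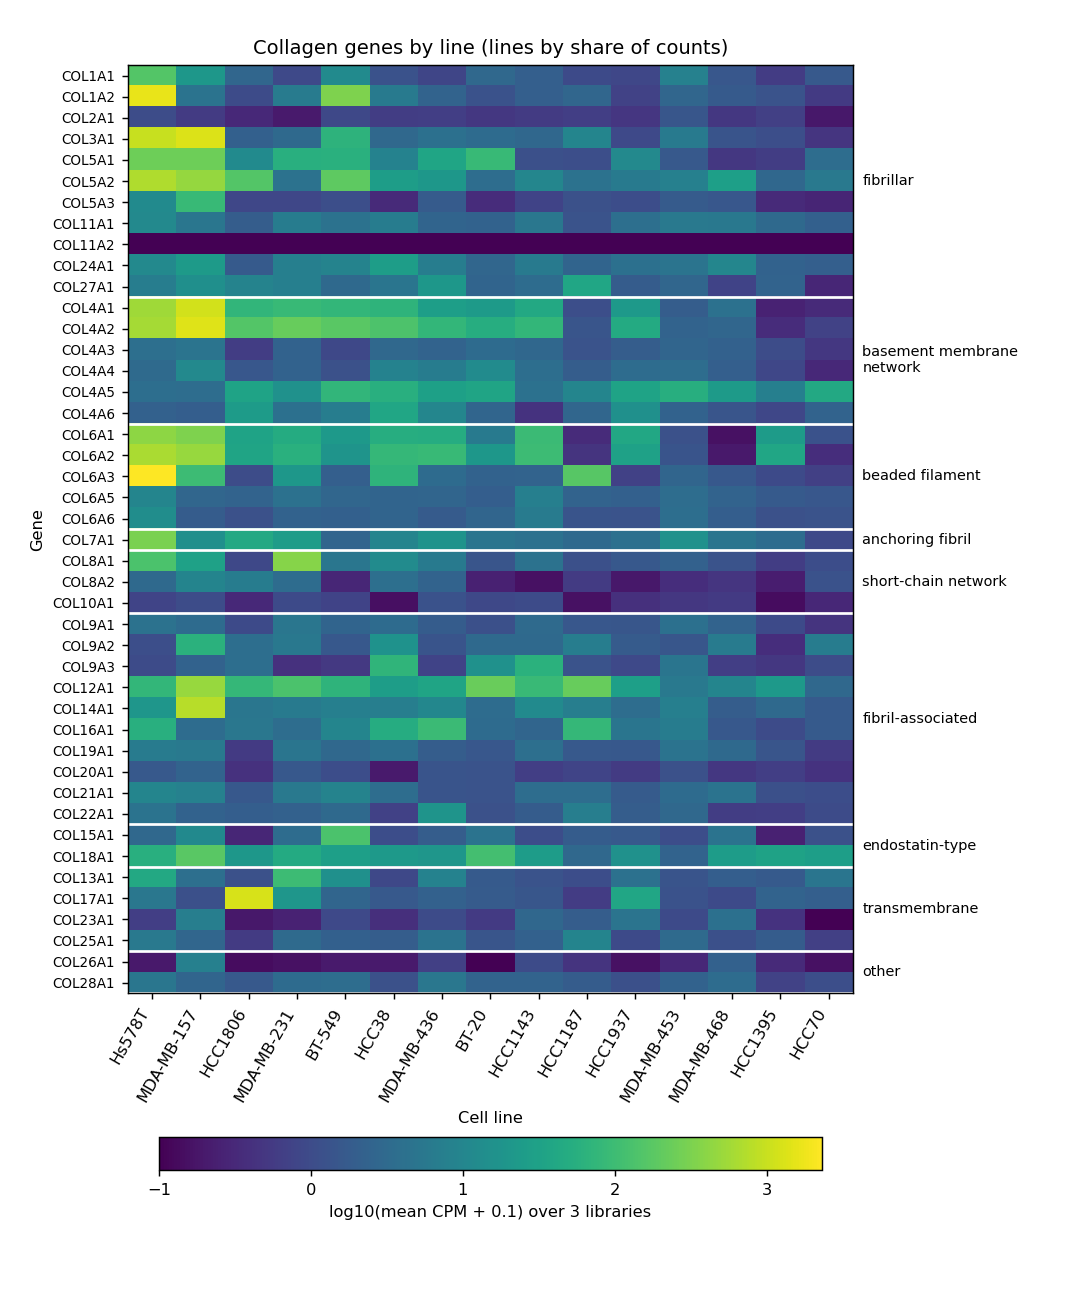
Mean level of the 44 collagens in the 15 lines, as log10(CPM + 0.1) over 3 libraries, with genes grouped by structural class and lines ordered by their collagen share of counts. The bright cells of Hs578T and MDA-MB-157 fall mainly in the fibrillar, COL4A1 and COL4A2, and COL6A1 to COL6A3 entries, the brightest cell of HCC1806 is COL17A1 (1260 CPM), and COL11A2 is at 0 throughout.

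The lines that were high did not share 1 profile. To compare genes, CPM was divided by the length of the merged exons in kilobases. By this measure fibrillar collagens made up 47.7% of the collagen signal in Hs578T, 37.8% in MDA-MB-157 and 51.6% in BT-549. In HCC1806 COL17A1 alone made up 70.7%, in MDA-MB-231 COL8A1 made up 29.4%, and in HCC1187 COL12A1 made up 35%. In HCC70 the leading gene was COL4A5, with 3.62 CPM per kb and 25.3% of a total of 14.3 CPM per kb.

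**Figure D3:**
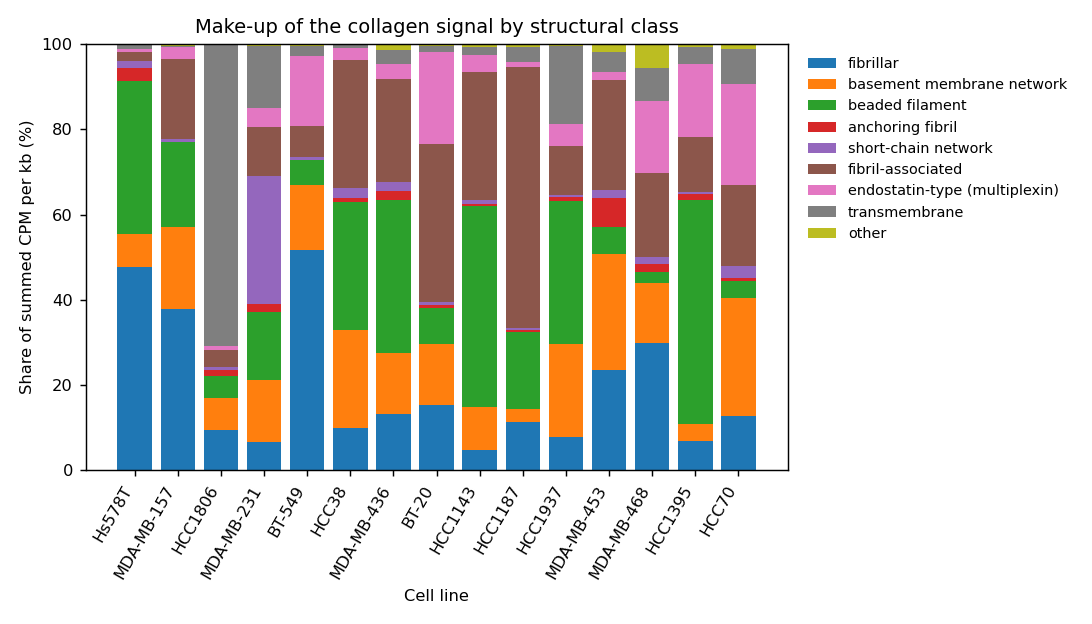
Share of each structural class in the summed collagen level (CPM per kb, mean of 3 libraries) of each line, in percent, with lines ordered by their collagen share of counts. Fibrillar collagens lead in Hs578T, MDA-MB-157, BT-549 and, at 29.8%, MDA-MB-468, and transmembrane collagens lead in HCC1806.

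Fibrillar collagens were high in Hs578T, MDA-MB-157 and BT-549. Per length COL1A2 led in Hs578T and BT-549, and COL3A1 led in MDA-MB-157. Of the 11 fibrillar genes 9 were tested: 7 were higher in Hs578T (20.9% of all genes), 7 in MDA-MB-157 (20%) and 5 in BT-549 (13.3%), and none was lower in these 3 lines. Of the 7 in Hs578T, COL11A1 was no longer called without replicate 2. In each of HCC70 and HCC1395 7 were lower, beside 22.9% and 17.7% of all genes. COL1A2, which encodes the alpha 2 chain of type I collagen, had 2740, 702 and 1430 CPM in Hs578T and 330, 233 and 438 CPM in BT-549. The other 13 lines lay between 0.443 CPM (HCC70) and 6.31 CPM (MDA-MB-231). No library of Hs578T or BT-549 overlapped with those lines or with each other. The log2 fold change was 9.22 (SE 0.14, adjusted p = 9.82e-43) in Hs578T, 9.58 without replicate 2, and 6.77 (SE 0.15, adjusted p = 6.4e-36) in BT-549.

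COL3A1, the single chain of type III collagen of skin and vessel walls, was the fibrillar gene with the highest level per length, 197 CPM per kb in MDA-MB-157. It had 1440, 1250 and 1340 CPM in MDA-MB-157, 1770, 460 and 680 CPM in Hs578T and 47.8, 30.9 and 116 CPM in BT-549, against line means of 0.366 to 9.67 CPM in the other 12 lines. MDA-MB-157 and Hs578T overlapped, since the first Hs578T library exceeded all 3 of MDA-MB-157. The log2 fold change was 8.28 (SE 0.16, adjusted p = 2.22e-38) in MDA-MB-157 and 7.78 in Hs578T (8.12 without replicate 2).

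COL1A1, the main chain of type I collagen, was at 16.1 CPM per kb in Hs578T, where COL1A2 was at 146 CPM per kb. Hs578T had 287, 54.9 and 134 CPM (log2 fold change 6.29, SE 0.17, adjusted p = 8.94e-33), and no library of another line exceeded 22.6 CPM. In MDA-MB-157 it averaged 20.2 ± 2.21 CPM (SD, n = 3) and in BT-549 11.9 ± 8.05 CPM. MDA-MB-453 had 7.56, 7.83 and 9.32 CPM (log2 fold change 1.72, SE 0.29, adjusted p = 1.97e-06), the largest collagen rise of that line, and the libraries of 3 lines reached into this range.

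The type V chains, which seed fibrils, were high in the same lines and in others. COL5A2 had 1150, 311 and 600 CPM in Hs578T (log2 fold change 5.39, SE 0.12, adjusted p = 1.34e-36) and averaged 470 ± 14.1 CPM in MDA-MB-157, 190 ± 54.5 CPM in BT-549 and 154 ± 9.63 CPM in HCC1806. COL5A1 had 470, 86.9 and 192 CPM in Hs578T (log2 fold change 4.97, SE 0.19, adjusted p = 5.1e-27) and averaged 249 ± 17.7 CPM in MDA-MB-157. In BT-20 COL5A1 had 92.6, 91 and 77.6 CPM, the largest collagen rise of that line (log2 fold change 3.33, SE 0.22, adjusted p = 5.71e-18), while COL5A1 averaged 0.405 CPM in MDA-MB-468. COL5A3, another type V chain, averaged 87.8 ± 10.6 CPM in MDA-MB-157 and 12.3 ± 3.56 CPM in Hs578T, and no more than 1.68 CPM elsewhere. An antisense gene shares 270 exon bases with COL5A3 and held 47 counts in all.

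The remaining fibrillar genes were low. COL27A1, a minor fibrillar collagen of cartilage, peaked at 37.9 CPM in HCC1187, and COL24A1 at 26.7 ± 1.57 CPM in HCC38. COL11A1, a chain of cartilage fibrils, had 4.47, 21.6 and 6.93 CPM in Hs578T. Its log2 fold change there was 1.55 with all libraries and 0.68, below the threshold, without replicate 2, and HCC38 and MDA-MB-231 each averaged 6.75 CPM. COL2A1, the main cartilage collagen, never exceeded 11 counts in a library and was not tested. COL11A2 was listed at 0 counts in all 45 libraries. It lies on chromosome 6 in a stretch that was nearly empty in this table: from DDR1 to RPS18 (GRCh38, chr6:30876421-33276510), 63 of 115 protein-coding genes had 0 counts and the median total was 0, against a median of 2468 for all protein-coding genes. RPS18, a ribosomal protein gene used by every cell, held 56 counts over the 45 libraries. The 0 of COL11A2 is therefore not a measured absence.

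Basement membrane collagens formed 3 pairs of genes lying head to head. COL4A1 and COL4A2, whose chains form the common type IV network, start 127 bases apart on chromosome 13, COL4A3 and COL4A4 start 419 bases apart on chromosome 2, and COL4A5 and COL4A6 start 380 bases apart on chromosome X. The RefSeq promoter windows (GRCh38.p14, 250 bases before to 50 after the start) of the 3 pairs share 226, 82 and 121 bases. COL4A6 has another window (chrX:108438373-108438672) that does not overlap the window of COL4A5, and the values given are those of its nearer window. One window of each pair is printed to show the sequence the neighbours share, and that of COL17A1 because 1 line had most of its RNA. Capitals mark the TATA box letters TATAAA, the CCAAT box letters CCAAT and the GC box letters GGGCGG, with TTTATA for the TATA box, ATTGG for the CCAAT box and CCGCCC for the GC box where they lie on the opposite strand. The windows are COL4A1 (chr13:110307108-110307407, minus strand), COL4A3 (chr2:227164374-227164673, plus strand), COL4A5 (chrX:108439588-108439887, plus strand) and COL17A1 (chr10:104085831-104086130, minus strand), each 5′ to 3′ on the strand of its gene.
COL4A1: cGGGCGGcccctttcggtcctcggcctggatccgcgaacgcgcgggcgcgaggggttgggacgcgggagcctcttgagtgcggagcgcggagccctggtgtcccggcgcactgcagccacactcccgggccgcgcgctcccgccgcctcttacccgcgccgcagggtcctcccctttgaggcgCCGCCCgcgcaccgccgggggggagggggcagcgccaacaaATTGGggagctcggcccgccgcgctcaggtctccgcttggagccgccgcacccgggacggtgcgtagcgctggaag
COL4A3: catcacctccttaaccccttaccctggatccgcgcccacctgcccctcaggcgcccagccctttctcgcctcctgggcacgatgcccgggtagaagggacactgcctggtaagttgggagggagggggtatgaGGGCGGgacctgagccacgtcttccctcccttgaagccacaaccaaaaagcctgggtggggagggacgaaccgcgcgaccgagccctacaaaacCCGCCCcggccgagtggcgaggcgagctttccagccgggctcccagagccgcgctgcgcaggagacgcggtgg
COL4A5: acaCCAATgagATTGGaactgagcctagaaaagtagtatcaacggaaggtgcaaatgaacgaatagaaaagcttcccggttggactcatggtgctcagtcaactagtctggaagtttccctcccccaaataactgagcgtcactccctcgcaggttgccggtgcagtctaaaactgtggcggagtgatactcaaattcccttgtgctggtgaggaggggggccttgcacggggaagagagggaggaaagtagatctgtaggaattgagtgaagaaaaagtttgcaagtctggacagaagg
COL17A1: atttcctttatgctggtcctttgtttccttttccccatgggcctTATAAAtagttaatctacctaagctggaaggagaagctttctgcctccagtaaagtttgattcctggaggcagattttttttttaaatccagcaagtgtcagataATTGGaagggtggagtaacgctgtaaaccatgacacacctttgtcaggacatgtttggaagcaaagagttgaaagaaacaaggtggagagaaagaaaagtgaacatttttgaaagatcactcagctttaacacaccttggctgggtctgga

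The 3 paired windows differed in composition. GC content was 76.7% for COL4A1, 67.7% for COL4A3 and 49.3% for COL4A5, and 40.7% for the unpaired COL17A1. COL4A1 held 2 GGGCGG and 1 CCAAT match, COL4A3 held 2 GGGCGG matches, COL4A5 held 2 CCAAT matches, and COL17A1 held 1 TATAAA and 1 CCAAT match. In all, 32 of the 44 collagens had 44 windows in the RefSeq table. TATAAA on either strand was in 18.2% of these against 11.5% of all 35116 windows, CCAAT in 31.8% against 34.6%, and GGGCGG in 54.5% against 45%. A match is a description of the letters and not a site.

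COL4A1 and COL4A2 were highest in MDA-MB-157. COL4A1 had 1100, 1180 and 1190 CPM there and 907, 275 and 467 CPM in Hs578T, against line means of 0.166 CPM (HCC1395) to 86.8 CPM (MDA-MB-231) in the other 13 lines. COL4A2 had 1430, 1420 and 1370 CPM in MDA-MB-157 and 889, 355 and 546 CPM in Hs578T, against 0.253 CPM (HCC1395) to 224 CPM (MDA-MB-231) elsewhere. Both genes were thus higher in every MDA-MB-157 library than in any other library, with log2 fold changes of 6.46 (SE 0.12, adjusted p = 1.35e-38) for COL4A1 and 5.94 (SE 0.13, adjusted p = 1.03e-35) for COL4A2. Another 5 lines had almost none: over 3 libraries COL4A1 summed to 4 counts in HCC1395, 6 in HCC70, 17 in HCC1187 and 37 in MDA-MB-453, with 79 for MDA-MB-468.

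COL4A5, an X-linked chain of specialised basement membranes, had another distribution. It had 73, 62.9 and 82.9 CPM in BT-549 (log2 fold change 2.06, SE 0.11, adjusted p = 1.06e-21), 44, 37.7 and 47.3 CPM in HCC70, and 3.55 CPM, its lowest level, in MDA-MB-157. HCC70, where 29 collagens were lower, thus kept COL4A5 above the mean of the other lines (log2 fold change 1.24, SE 0.11, adjusted p = 3.07e-13), and the libraries of 4 lines reached its range. COL4A6 had 25.9, 41.7 and 47.3 CPM in HCC38 (log2 fold change 3.67, SE 0.19, adjusted p = 8.88e-22), followed by 25.1 ± 1.78 CPM in HCC1806 and 15.4 CPM in HCC1937. COL4A4, a chain of the kidney filter, had 14.9, 12.3 and 10.6 CPM in BT-20 (log2 fold change 2.41, SE 0.22, adjusted p = 2.5e-13), and HCC38 and MDA-MB-157 overlapped with it. COL4A3 stayed below 5 CPM on average in every line, and its 5.4, 4 and 4.81 CPM in MDA-MB-157 overlapped with libraries of 3 lines. The antisense gene AC097662.1 shares 120 exon bases with COL4A3 and held 564 counts in all, beside 591 of COL4A3, and since the strand setting is not known reads from those bases cannot be told apart.

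Type VI collagen, the beaded filament, separated into a pair that moved together and another chain that did not. COL6A1 and COL6A2 lie in tandem on chromosome 21, with 93046 bases between them. COL6A2 had 829, 356 and 744 CPM in Hs578T (log2 fold change 5.59, SE 0.12, adjusted p = 5.52e-37), and MDA-MB-157 overlapped at 486, 489 and 506 CPM. COL6A1 had 547, 243 and 480 CPM in Hs578T (log2 fold change 5.24, SE 0.11, adjusted p = 1.51e-37), again with overlap, and 322, 356 and 312 CPM in MDA-MB-157. At the low end, COL6A1 and COL6A2 summed to 1 and 2 counts in MDA-MB-468 and to 4 and 6 counts in HCC1187. HCC1395 was the reverse of its general pattern for COL6A2, its only higher collagen, at 38.6, 37.3 and 37.7 CPM (log2 fold change 1.21, SE 0.18, adjusted p = 1.09e-07), a level that libraries of 7 other lines reached.

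COL6A3, the long alpha 3 chain of type VI, had 3360, 1180 and 2370 CPM in Hs578T (log2 fold change 9.05, SE 0.13, adjusted p = 4.52e-44; 9.37 without replicate 2). The next line was HCC1187, at 181, 157 and 174 CPM (log2 fold change 5.02, SE 0.15, adjusted p = 9.4e-31), where its partner genes had almost no counts. COL6A3 was called lower in 10 of the 15 lines and higher in the other 5. COL6A6, a later-found type VI chain, had 11.2, 21 and 9.66 CPM in Hs578T (log2 fold change 2.83, and 2.45 without replicate 2) and averaged 6.42 ± 0.534 CPM in HCC1143. Its relative COL6A5 had 6.04, 17.4 and 4.74 CPM in Hs578T and averaged 7.6 ± 0.997 CPM in HCC1143. Without replicate 2 the Hs578T mean of COL6A5 was 5.39 CPM (log2 fold change 1.09, against 1.8 with all libraries), so HCC1143 was then the higher line.

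COL7A1 and COL8A1 each had 1 dominant line. COL7A1, which forms the fibrils that fasten epithelium to connective tissue, had 279, 219 and 398 CPM in Hs578T, against no more than 45.4 CPM in any library of another line (log2 fold change 5.5, SE 0.11, adjusted p = 3.01e-37). COL8A1, a short-chain collagen of vessel walls, had 451, 379 and 289 CPM in MDA-MB-231, against 182 CPM or less elsewhere (log2 fold change 6.85, SE 0.14, adjusted p = 7.36e-38). Neither gene overlapped between its leading line and the rest. COL8A2 reached 9.09 ± 0.0438 CPM in MDA-MB-157 and 6.59 ± 1.62 CPM in HCC1806, and was called higher in 6 lines. COL10A1, a collagen of growth plate cartilage, averaged 1.18 ± 0.396 CPM in MDA-MB-436, 0.94 ± 0.424 CPM in MDA-MB-157 and 0.9 ± 0.606 CPM in HCC1143, which overlapped.

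Fibril-associated collagens, which sit on the surface of fibrils, peaked in several different lines. COL14A1 had 886, 726 and 775 CPM in MDA-MB-157 and no more than 28.5 CPM in any library of another line (log2 fold change 7.18, SE 0.09, adjusted p = 3.35e-45). COL12A1, its close relative, was broadly present instead: it averaged 494 ± 35 CPM in MDA-MB-157, BT-20 had 232 ± 30.6 CPM and HCC1187 222 CPM. It was at 10 CPM or more in 12 lines and lowest in HCC70 at 2.91 CPM. COL16A1 had 106, 93.2 and 83.8 CPM in MDA-MB-436 (log2 fold change 3.97, SE 0.14, adjusted p = 4.43e-28), and HCC1187 overlapped at 92.2, 63.5 and 85.6 CPM. COL22A1 was highest in MDA-MB-436 at 17.8 ± 0.947 CPM.

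Type IX chains, known from cartilage, were high in different lines. COL9A3 had 81.4, 73 and 59.4 CPM in HCC38 (log2 fold change 5.48, SE 0.15, adjusted p = 1.33e-32) and 58.6, 57.3 and 68.1 CPM in HCC1143 (log2 fold change 5.25, SE 0.15, adjusted p = 2.53e-31). These 2 lines overlapped, and BT-20 followed at 15.7 CPM. COL9A2 had 60.6, 64.7 and 54.7 CPM in MDA-MB-157 and averaged 16.4 ± 2.36 CPM in HCC38. COL9A3 shares 45 exon bases with TCFL5 on the other strand, and the strand setting of the counting is not given in the sources used here, so reads from those bases cannot be told apart.

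Among the membrane-spanning collagens, COL17A1 was high in HCC1806. COL17A1 encodes a component of hemidesmosomes, the junctions of basal epithelial cells with the basement membrane. HCC1806 had 1300, 1240 and 1230 CPM, against 40.4 CPM or less in every other library (log2 fold change 9.06, SE 0.1, adjusted p = 1.19e-48). HCC1937 came next at 40.4, 37.5 and 37.7 CPM (log2 fold change 3.67, SE 0.14, adjusted p = 1.97e-26), and MDA-MB-231 averaged 19.8 CPM. Of 7 myoepithelial and basal markers 4 were higher and 3 lower in HCC1806, beside 15.9% and 13.7% of all genes. Their sum there, 4780 ± 392 CPM, came mainly from the basal keratins KRT5 (2450 CPM) and KRT14 (1660 CPM), while the contractile gene MYLK was at 2.63 CPM, its lowest level in any line. HCC70, with a marker sum of 3370 ± 37.6 CPM, had 2.03 ± 0.51 CPM of COL17A1.

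COL13A1, a transmembrane collagen of the neuromuscular junction, averaged 97.1 ± 9.2 CPM in MDA-MB-231 and 42.5 ± 17.1 CPM in Hs578T. COL15A1, a basement-membrane-associated collagen, had 102, 80.3 and 216 CPM in BT-549, and the next line, MDA-MB-157, averaged 11.5 ± 0.957 CPM. COL18A1, the source of endostatin, had 175, 181 and 172 CPM in MDA-MB-157 (log2 fold change 3.01, SE 0.14, adjusted p = 9.69e-24) and 113 ± 23.7 CPM in BT-20, and was at 10 CPM or more in 13 lines. SLC19A1 on the other strand shares 1401 exon bases with COL18A1. COL26A1 had 6.35, 9.51 and 7.83 CPM in MDA-MB-157 and 1.02, 2.35 and 2.98 CPM in MDA-MB-468. Its fitted log2 fold changes, 5.49 (SE 0.37) and 3.48 (SE 0.47), depend on the prior count, since BT-20 had none.

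Chains that assemble into 1 molecule were followed across the 15 lines. Correlations are over 15 line means and are given as descriptions, since the lines share their processing and scaling. COL4A1 and COL4A2 kept the same order of lines (Spearman 1, Pearson 0.99 on the log scale), and their ratio per length ranged from 0.478 ± 0.0195 in MDA-MB-436 to 1.16 ± 0.164 in Hs578T (SD, n = 3). COL6A1 and COL6A2 had a Spearman correlation of 0.97, and COL4A3 and COL4A4 one of 0.87. COL4A5 and COL4A6 had 0.60 although they too lie head to head: their ratio was 1.05 ± 0.0567 in HCC1806 and 1.19 ± 0.24 in HCC38 but 14.4 ± 2.57 in HCC70 and 19.6 ± 3.72 in MDA-MB-453. Over all 903 pairs of the 43 collagens with a count the median was 0.33, and it was 0.365 over the 126 pairs of 1 structural class.

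The 2 chains of type I collagen were far from equal levels. COL1A1 stood at 0.105 ± 0.015 of COL1A2 per length in Hs578T and at 0.0385 ± 0.0159 in BT-549. In MDA-MB-157, where COL3A1 reached 197 CPM per kb, COL1A1 had 2.06 and COL1A2 0.396 CPM per kb, a ratio of 5.93 ± 3.2 that rests on 346 and 76 counts. In MDA-MB-453 the ratio was 3.59 ± 0.714, on 153 and 49 counts. The Spearman correlation of COL1A1 and COL1A2 was 0.37, that of COL5A1 and COL5A2 0.44, that of COL6A3 and COL6A1 0.43, and that of COL9A2 and COL9A3 0.35. COL6A3 stood at 1.45 ± 0.193 of COL6A1 in Hs578T and at 0.0801 ± 0.00603 in MDA-MB-157, while HCC1187 had 2835 counts of COL6A3 and 4 of COL6A1.

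**Figure D4:**
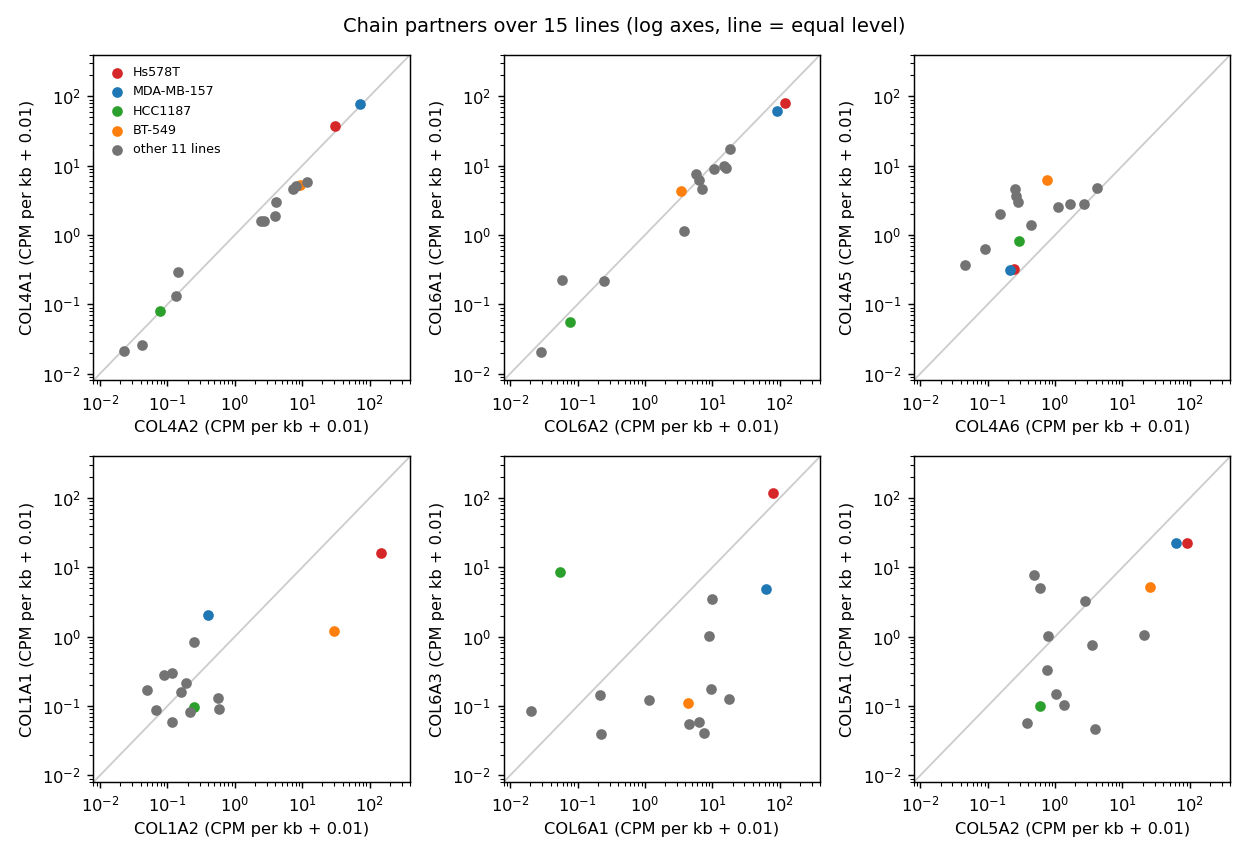
Mean level per length (CPM per kb + 0.01, log axes) of 6 pairs of collagen chains in the 15 lines, with the grey line at equal levels and 4 lines in colour. The COL4A1 and COL4A2 pair and the COL6A1 and COL6A2 pair lie along the line, while COL6A3 against COL6A1 puts HCC1187 far above it and MDA-MB-157 below it.

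Of the 44 collagens, 17 reached 100 CPM in at least 1 line, 13 peaked between 10 and 100 CPM, and 14 stayed under 10 CPM in every line. Across lines the low ones followed how many genes a line had detected at a common depth of 2312138 counts. The Spearman correlation with that number had a median of 0.72 over the 13 low collagens with a count (0.20 to 0.87), 0.49 over the 13 in the middle and 0.50 over the 17 high ones. Mean gene numbers at that depth ran from 19826 in HCC70 to 30423 in Hs578T, but the Hs578T mean was 25498 without replicate 2, and MDA-MB-157 was then highest at 29252. Without that library the medians were 0.69 over the low collagens (0.13 to 0.80), 0.39 in the middle and 0.39 over the high ones. PTPRC, a leukocyte gene that breast cancer cells should lack, reached 4.84 ± 2.35 CPM in MDA-MB-453, and COL9A1, COL19A1, COL20A1 and COL28A1 peaked at 5.12, 6.44, 2.33 and 5.33 CPM. The COL19A1 peak, in Hs578T, was 3.51 CPM without replicate 2. COL9A1 and COL19A1, which face each other on chromosome 6 with 5084 bases between them, had a Spearman correlation of 0.96. COL19A1 shares 70 exon bases with LMBRD1 on the other strand, which held 15332 counts in all, beside 770 of COL19A1. As the strand setting is not known, reads from those bases cannot be told apart. Whether the low levels of these collagens come from expressed collagen was not tested.

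Hs578T replicate 2 changed which low collagens were called in its line. Without it 21 collagens were higher instead of 28. With all libraries 20.9% of all genes were higher in this line, and the share without replicate 2 is not given here. The 7 that were no longer called (COL4A3, COL9A1, COL11A1, COL19A1, COL22A1, COL25A1 and COL28A1) averaged 3.75 to 11 CPM and were all highest in replicate 2. Of the 21 that were called both ways, 15 were lowest in replicate 2, COL1A2 for example at 702 CPM against 2740 and 1430 CPM. The genes were sorted by the effect of dropping replicate 2, so these orders follow in part from the sorting. Without replicate 2 COL4A6 was called lower in Hs578T (log2 fold change -1.31, adjusted p = 0.0159).

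**Figure D5:**
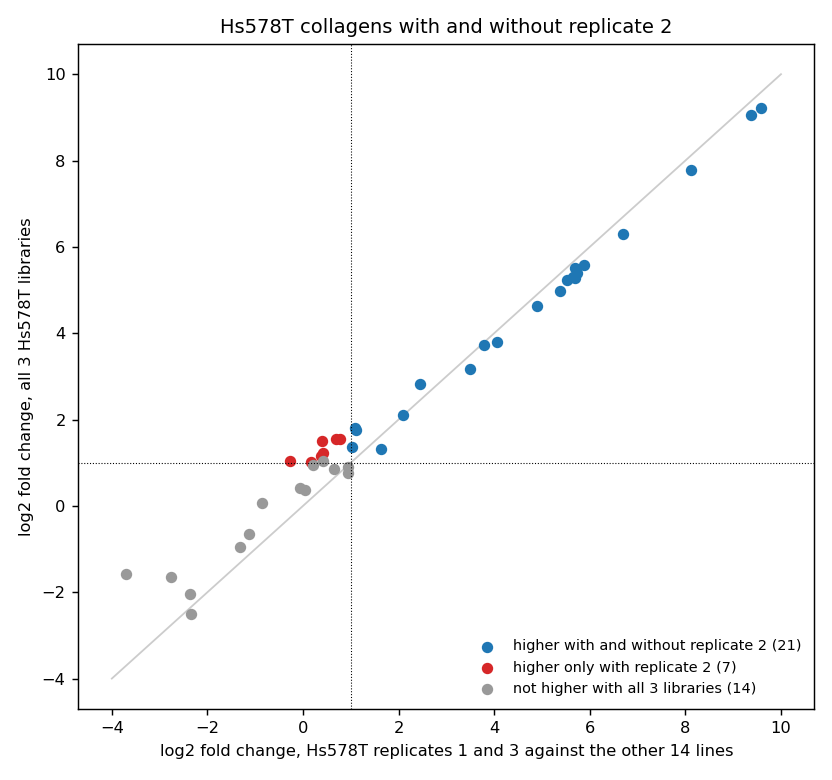
Log2 fold change of the 42 tested collagens in Hs578T against the mean of the other 14 lines, with all 3 libraries (vertical axis) and without replicate 2 (horizontal axis); dotted lines mark a log2 fold change of 1. The 21 genes called higher both ways reach a log2 fold change of 9.58, and the 7 called only with replicate 2 lie below 1 without it.

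The 2 lines richest in collagen RNA also had the highest levels of fibroblast markers other than collagens. Of 8 such genes 6 were higher and none lower in each of Hs578T and MDA-MB-157, beside 20.9% and 20% of all genes higher in these lines. Their summed level was 874 ± 347 CPM in Hs578T and 561 ± 24.5 CPM in MDA-MB-157, against 6.01 to 116 CPM in the other 13 lines, and 7 of 7 mesenchymal markers were higher in both. BT-549, where 13.3% of all genes were higher, also had 7 of 7, and its fibroblast markers summed to 116 ± 28.5 CPM. HCC1395 had 8 of 9 epithelial markers lower and 5 of 7 mesenchymal markers higher (17.7% and 14.4% of all genes), and also had 29 collagens lower and a fibroblast sum of 6.01 ± 2.21 CPM. Over the 15 line means COL1A2 had a Spearman correlation of 0.67 with the mesenchymal marker VIM, and of -0.65 with the epithelial marker CDH1. COL9A3 had -0.39 with VIM and 0.62 with CDH1, and COL4A5 had -0.41 with VIM and 0.43 with CDH1. These genes are named because they hold the highest and lowest values of any collagen. The other collagens lay between, COL1A1 for example at 0.14 with VIM and 0.04 with CDH1. The part of these markers in the collagen levels was not tested.

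Genes that fold and modify collagen were more often higher than lower in Hs578T, MDA-MB-157 and BT-549, but single ones were low in MDA-MB-157. All 25 folding and modification genes differed among lines, as did 98.2% of all genes, so that count sets none apart. In Hs578T 15 were higher and 1 lower, beside 20.9% and 9.56% of all genes, in MDA-MB-157 12 and 4 (20% and 12.4%) and in BT-549 9 and 0 (13.3% and 10.7%). FKBP10, a prolyl isomerase of collagen folding, averaged 229 ± 67.5 CPM in Hs578T but 1.81 ± 0.252 CPM in MDA-MB-157, where it was lower than the mean of the other lines (log2 fold change -3.68, adjusted p = 7.04e-15). SERPINH1, the collagen chaperone HSP47, was chosen after its values were seen: it averaged 365 ± 230 CPM in Hs578T and 16.3 ± 2.2 CPM in MDA-MB-157, its lowest level in any line (log2 fold change -2.83, adjusted p = 1.44e-14). Of the prolyl 3-hydroxylases, P3H2 peaked at 316 ± 24 CPM in HCC1937 and P3H3 at 30.2 ± 12 CPM in Hs578T.

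Of 16 processing and crosslinking genes, 12 were higher and none lower in Hs578T, 12 higher and 2 lower in MDA-MB-157, and 8 higher and 3 lower in BT-549, beside the shares of all genes just given. In both HCC70 and MDA-MB-468 none was higher and 10 were lower, beside 17.7% and 22.9% of all genes in HCC70 and 14.7% and 9.19% in MDA-MB-468. SPARC, a collagen-binding matrix protein, averaged 3950 ± 371 CPM in MDA-MB-157 and 0.0475 ± 0.0822 CPM in HCC70. ADAMTS2, which trims procollagen, averaged 275 ± 3.2 CPM in MDA-MB-157, and LOXL2, a crosslinking lysyl oxidase, 340 ± 114 CPM in BT-549. Of 11 collagen receptors 8 were tested, with 5 higher and 1 lower in Hs578T, 5 higher and 1 lower in HCC38 (13.8% and 10.2% of all genes) and 4 higher and 2 lower in MDA-MB-157. ITGA11, a fibrillar collagen integrin subunit, averaged 129 ± 63.6 CPM in Hs578T, the collagen-triggered kinase DDR2 263 ± 123 CPM in Hs578T, and the uptake receptor MRC2 272 ± 18.9 CPM in MDA-MB-157. DDR1 lies in the nearly empty stretch of chromosome 6 and held 129 counts in all.

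Growth medium gave no collagen call when the line was the unit. In a comparison of 5 L-15 lines with 8 RPMI 1640 lines by the edgeR quasi-likelihood test, 0 of 41 collagens passed, beside 0% of all genes in either direction. At an unadjusted p under 0.05, 7 collagens were higher and 3 lower in L-15 lines, beside 5.83% and 5.6% of all genes, and DESeq2 called 1 higher, COL8A1, beside 0.886% of all genes higher and 1.27% lower. COL14A1 averaged 163 CPM in L-15 lines and 5.74 CPM in RPMI 1640 lines, with medians of 7.27 and 6.01 CPM (log2 fold change 4.83, SE 1.19, adjusted p = 0.28). The median log2 fold change over the 41 was 0.99, against -0.03 over all genes, and it was 0.12 without MDA-MB-157. Medium and line cannot be told apart, since each line was grown in 1 medium.

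The title of the series concerns cells with high MYC, and no label gives a MYC class, so a slope against the log2 CPM of MYC was fitted for each gene over the 15 lines. By the edgeR quasi-likelihood test 0 of 43 collagens passed, beside 0.00376% of all genes rising and 0.143% falling. At an unadjusted p under 0.05, 1 collagen had a positive and 5 a negative slope, beside 2.68% and 3.39% of all genes, and DESeq2 called 4 falling (COL1A1, COL3A1, COL5A3 and COL14A1), beside 0.804% of all genes rising and 0.914% falling. The lowest adjusted p belonged to COL14A1, with a slope of -2.45 log2 units per log2 unit of MYC (SE 0.53, adjusted p = 0.0978), and COL5A3, with -2.54 (SE 0.56, adjusted p = 0.103). The median slope over the 43 was -0.30, against 0.01 over all genes. With 1 line left out at a time, the median over the collagens ran from -0.49 (without MDA-MB-453) to 0.01 (without MDA-MB-157). Without MDA-MB-453, 0 of all genes passed in either direction.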

How the data were processed

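RNA of 15 cell lines was sequenced in 45 libraries. Per the labels' protocols, RNeasy RNA was depleted of ribosomal RNA with Ribo-Zero Gold, and ScriptSeq v2 libraries were made. According to the submitters' processing notes, bcl2fastq 2.20.0.422, FastQC, MultiQC, Trimmomatic, STAR, featureCounts and GRCh38.p12 were used. For other versions and the strand setting nothing is given in the sources used here. Raw counts per gene are what the authors deposited.

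From these counts, TMM-scaled CPM, F tests among lines and contrasts of each line with the mean of the other 14 were computed with edgeR 4.0.16 in R 4.3.3 (quasi-likelihood, prior count 2, filterByExpr with at least 10 counts and a total of at least 15, adjustment over all genes by Benjamini-Hochberg at 0.05, two-sided). The common coefficient of variation between replicates was 0.153. Comparisons by medium and MYC used counts summed per line. DESeq2 1.42.0 was an alternative, and the code was tested on simulated data. Annotation is GENCODE 29, and promoter windows are RefSeq's. A ratio of chains was taken only where the gene in the denominator had at least 10 counts in each of the 3 libraries.

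The collagens, the other gene lists and the rule for named genes were chosen with earlier results of these data known. Named with single libraries were the member with the highest level per length of each structural class, the largest rise of each line, and chain partners. From each other list the 3 genes with the largest range were named. COL3A1 in Hs578T and BT-549, COL4A1 and COL4A2 in Hs578T, COL6A1 and COL6A2 in MDA-MB-157, COL6A5, COL6A6 and COL11A1 in Hs578T, COL9A2, COL15A1 and COL16A1 in HCC1187 have single libraries printed outside this rule, chosen after their values were seen. Peak lines and gene numbers without Hs578T replicate 2 were also added after seeing the data. In the 11 lines of runs 3 to 5 the replicate number is the run. Deviations from the line mean had a median correlation of 0.06 within a run (-0.18 to 0.33) and of -0.03 between runs.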

Additional observations from a re-analysis of the deposited data

Results flagged for a closer look

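In 11 of 84 groups of lines grown in 1 medium (42 genes, 5 L-15 and 8 RPMI 1640 lines), the mean of 1 line stood far from the others on the log2(CPM + 0.1) scale, by the gap to its neighbour over the range of the group. For independent groups of normally distributed values the rule would set apart about 1 in 20. The 84 groups hold the same lines again and again and are not independent, so the 11 cannot be judged against that rate. Among the L-15 lines MDA-MB-157 stood above the rest for COL3A1 (1340 CPM, next 6.15 CPM), COL14A1 (796 CPM, next 10.2 CPM), COL5A3 (87.8 CPM, next 1.68 CPM) and COL4A3 (4.73 CPM, next 2.53 CPM, with 1 library of MDA-MB-453 above the lowest of MDA-MB-157). MDA-MB-231 stood above them for COL17A1 (19.8 CPM, next 2.16 CPM), and MDA-MB-436 below them for COL11A1 (2.42 CPM, next 5.08 CPM). Among the RPMI 1640 lines BT-549 stood above the rest for COL1A2 (334 CPM, next 6.09 CPM) and COL15A1 (133 CPM, next 1.74 CPM), and HCC1143 for COL6A5 (7.6 CPM, next 2.6 CPM) and COL6A6 (6.42 CPM, next 2.48 CPM). HCC1187 stood below the rest for COL18A1 (2.82 CPM, next 16.1 CPM).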

How the results depend on the processing

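The 42 collagens that differed among lines, the 164 higher pairs and the 191 lower pairs became 42, 167 and 198 with DESeq2, 42, 166 and 196 with its size factors, and 42, 160 and 186 without the filter on low counts. With the sequencing run as a replicate block they were 42, 165 and 190. Leaving out 1 replicate of every line gave 41 to 42 differing genes, 165 to 167 higher pairs and 155 to 172 lower pairs, and leaving out Hs578T replicate 2 alone gave 42, 158 and 189. In the 11 lines of runs 3 to 5 they were 40 of 41, 113 and 130, and in the 4 lines of runs 1 and 2, an alternative added after seeing the data, 33 of 39, 39 and 48, with fewer lines in either case. Asking for a log2 fold change of 2 left 99 higher and 96 lower pairs, given without the shares of all genes at that cut. By medium the count was 0 except with DESeq2, which called 1. For MYC it was 4 with DESeq2 and 1, COL14A1, without the filter; the cause was not tested. All other settings tried gave 0. Of the 310 refitted log2 fold changes of named genes, 309 kept direction and call, and COL4A5 in HCC70 fell to 0.97 in the 11 lines of runs 3 to 5. Without TMM scaling 8 of 124 levels moved by more than 1 SD, COL3A1 in MDA-MB-157 to 1570 CPM. Counts cover sampling error only, and genes with a few counts per library, such as COL10A1 or COL20A1, carry little precision.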

Other observations

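The ligands and receptors of TGF-beta, a pathway known to raise collagen transcription in fibroblasts, were tested among lines by the edgeR quasi-likelihood test, and all 6 differed, as did 98.2% of all genes. In MDA-MB-157 4 were higher and none lower (20% and 12.4% of all genes), in MDA-MB-231 5 higher and 1 lower (15% and 10.5%), in Hs578T 3 higher and 1 lower (20.9% and 9.56%), and in MDA-MB-453 1 higher and 5 lower (17.7% and 14.6%). TGFB3 averaged 335 ± 31.6 CPM in MDA-MB-453, a line with few collagen counts, and 0.876 ± 0.163 CPM in BT-20 (SD, n = 3). TGFB2 averaged 321 ± 94.3 CPM in MDA-MB-231 and 0.926 ± 0.451 CPM in BT-20, and TGFBR2 101 ± 34 CPM in Hs578T and 1.41 ± 0.63 CPM in MDA-MB-453.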
